A study of Mus musculus with 18 samples.

Results

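Voltage-gated potassium channels that repolarize the heart muscle cell were followed through 7 genes: Kcnip2, Kcnd2, Kcnd3, Kcna4, Kcna5, Kcnv2 and Kcnq1. Every probe set annotated with 1 of these symbols alone was taken, which gave 16 of the 45137 probe sets on the arrays that are not controls. Of these 16, 10 probe sets of 6 genes were among the 27081 with a mean signal high enough to be tested, and both Kcna4 probe sets fell below that filter.

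The hearts came from male mice carrying Tet-myrAkt1, an activated form of the kinase Akt1 under a Tet-regulated promoter, together with αMHC-tTA, whose promoter drives the Tet activator in heart muscle cells. All 3 groups shared this genotype: 3 hearts taken at 8 weeks of age before AAC, the operation that produced the pressure overload, 3 hearts taken 4 weeks after AAC at a labelled age of 12 weeks, and 3 hearts taken 6 weeks after AAC with Akt switched on, also labelled 12 weeks old. The last group had Akt on for 3 weeks by its titles and 2 weeks by its descriptions, and 4-week replicate 3 is numbered 1 in its description. The samples analysed here hold no operated hearts at 6 weeks without Akt and no unoperated hearts of 12 weeks, so AAC cannot be told apart from age, nor Akt from the further weeks after AAC. Pooling of animals and separate breeding or batches were not stated, and p-values measure only the spread between these samples. The comparisons ask what pressure overload did to the channel genes and how they stood once Akt had been switched on.

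Repolarization of the mouse ventricle rests on several potassium currents that open after the upstroke. The fast transient outward current flows through pores built from Kv4.2 (Kcnd2) and Kv4.3 (Kcnd3) and needs the cytosolic calcium-binding subunit KChIP2 (Kcnip2), which brings those pores to the cell surface; mice without Kcnip2 lack this current. Kv1.4 (Kcna4) carries the slow transient outward current. Kv1.5 (Kcna5) and KvLQT1 (Kcnq1) are pores of the delayed rectifier kind, while Kcnv2 encodes an electrically silent subunit that joins other pore subunits and alters their gating. Loss of transient outward current and of its subunits is a known feature of the hypertrophied heart.

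Each heart was hybridized to 2 Affymetrix chips, 430A and 430B, and the values are MAS5 signals on a linear scale. Trimmed mean signals were 500.19 to 500.22 on the 9 arrays of chip 430A and 122.51 on those of chip 430B, so signals are compared between hearts for 1 probe set and not between probe sets. Precision is limited by having 3 arrays per group. Akt1 probe set 1425711_a_at had signals of 708, 383 and 496 before AAC, 571, 821 and 917 at 4 weeks and 2614, 3762 and 6535 with Akt on, highest in the 3 hearts labelled Akt on. The other Akt1 probe sets, 1416657_at and 1 on chip 430B, differed by 0.01 and -0.02 on the log2 scale between Akt-on and 4-week hearts and by -0.40 and 0.08 between Akt-on hearts and those before AAC, and passed in none of the comparisons. Heart muscle markers (Myh6, Actc1, Tnnt2 and 6 others) summed to signals of 224890 to 252589 before AAC, 180596 to 192937 at 4 weeks and 173263 to 205881 with Akt on. Over all tested probe sets, the mean correlation of 4-week replicate 3 with the other 4-week hearts was 0.967 on chip 430A and 0.911 on chip 430B, against 0.965 to 0.970 and 0.918 to 0.922 for those hearts. It was also the 4-week heart closest to the hearts before AAC, with a mean correlation of 0.946 and 0.908, against 0.936 to 0.938 and 0.902 for the others. Several Kcnip2, Kcna5 and Kcnv2 values below turn on this heart and are also given without it.

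Kcnip2 was the member that differed most. In the Akt-on hearts its chip 430B probe set was about 2 orders of magnitude below the hearts before AAC, while at 4 weeks the hearts split, with replicates 1 and 2 low and replicate 3 high. The RefSeq promoter of Kcnip2 (GRCm38.p6, chr19:45816014-45816313, minus strand, 250 bases before to 50 after the start) is printed with that of Kcnd2 (chr6:21215096-21215395, plus strand), because the 2 genes serve the same current, and Kcnip2 had calls in these hearts where Kcnd2 had none. Capitals mark the motifs GGGCGG (the core bound by Sp1), CCAAT (bound by NF-Y) and CACCC (bound by Krüppel-like factors such as Klf15), each searched on both strands, so that the reverse complement is also in capitals.
Kcnip2: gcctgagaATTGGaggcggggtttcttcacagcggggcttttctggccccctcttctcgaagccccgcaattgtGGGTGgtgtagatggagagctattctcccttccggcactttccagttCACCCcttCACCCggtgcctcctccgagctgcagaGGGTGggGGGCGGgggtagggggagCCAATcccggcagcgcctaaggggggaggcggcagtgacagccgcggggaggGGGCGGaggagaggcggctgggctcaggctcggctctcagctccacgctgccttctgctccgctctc
Kcnd2: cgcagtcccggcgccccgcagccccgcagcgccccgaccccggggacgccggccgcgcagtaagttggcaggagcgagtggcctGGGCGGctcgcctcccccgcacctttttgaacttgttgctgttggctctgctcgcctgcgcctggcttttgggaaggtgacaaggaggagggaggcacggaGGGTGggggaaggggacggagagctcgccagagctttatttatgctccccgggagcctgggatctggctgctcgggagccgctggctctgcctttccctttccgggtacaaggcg
The Kcnip2 window held 2 matches of GGGCGG, 2 of CCAAT and 4 of CACCC, and the Kcnd2 window held 1, 0 and 1. Neither held TATAAA, and no CACCC match overlapped a GGGCGG match. Among 32851 RefSeq mouse promoters of the same length, 35.7% held GGGCGG, 37.4% CCAAT and 57.5% CACCC, so these 3 motifs are common. Promoters of 5 of the 7 genes were matched. The windows of Kcnd3, Kcna4 and Kcna5 held 3, 4 and 2 matches of CACCC, 0, 3 and 0 of GGGCGG, and no CCAAT. None of these genes had a call, and Kcna4 was not tested. A match is a description of the letters and not a binding site.

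The chip 430B probe set of Kcnip2, 1436275_at, had signals of 3211, 3148 and 3396 before AAC, 1154, 852 and 4722 at 4 weeks, and 26.4, 24.2 and 21.0 at 6 weeks with Akt on. All 3 Akt-on hearts lay far below every other heart and close to each other, and the group did not overlap either of the others. The 4-week hearts lay on both sides of the hearts before AAC: replicates 1 and 2 below all 3, replicate 3 above all 3. Mean signals were 3252 ± 129 before AAC, 2243 ± 2152 at 4 weeks and 23.9 ± 2.71 with Akt on (SD, n = 3 each).

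Fold changes here are differences of log2(signal + 32) from limma, with adjusted p by Benjamini-Hochberg over the tested probe sets of both chips, and "rose" or "fell" is used where that p was under 0.05. Against 4 weeks, 1436275_at fell by 4.94 in Akt-on hearts on that scale (SE 0.44, 95% interval -5.88 to -3.99, adjusted p = 0.000197), which is 30.6-fold lower and the 7th smallest p of all probe sets. Against the hearts before AAC it fell by 5.88 (SE 0.44, interval -6.83 to -4.93, adjusted p = 2.17e-05), or 58.8-fold. The added constant of 32 is larger than the Akt-on signals, which lie under the mean of 47.3 that the filter asked for on this chip. The size of the fold therefore depends on the constant: the difference from the hearts before AAC was -6.36 with 16 and -5.24 with 64, and the plain ratio of mean signals was 136 (94.0 against 4 weeks). Between 4 weeks and before AAC the difference was -0.94 (SE 0.44, interval -1.89 to 0.01, adjusted p = 0.234) and did not pass. Without 4-week replicate 3 that difference was -1.68 with adjusted p = 0.00136, and the Akt-on hearts were lower than the remaining 4-week hearts by -4.20 on the log2 scale.

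**Figure D1:**
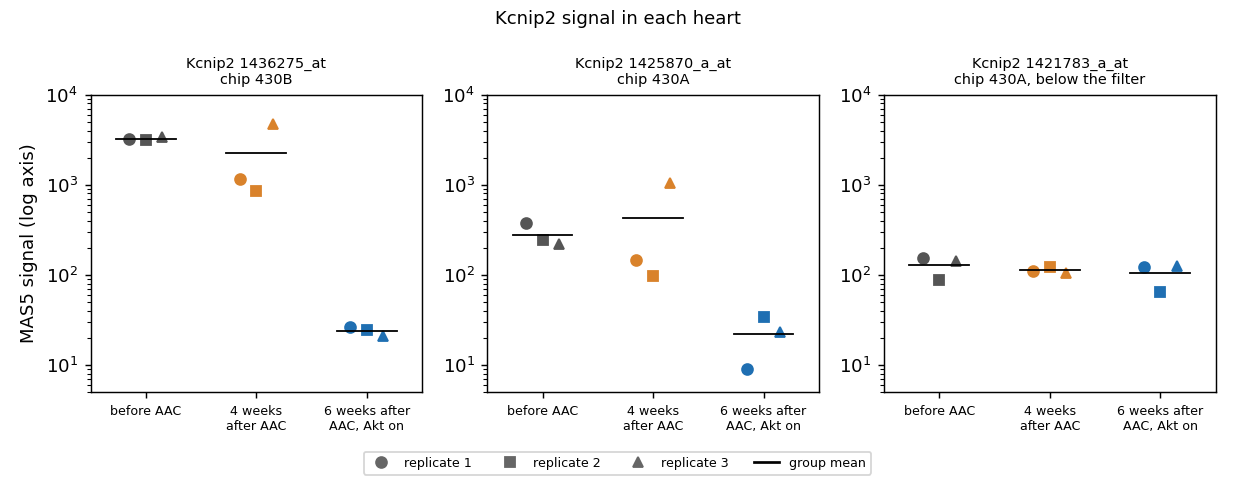
MAS5 signal of the 3 Kcnip2 probe sets (log axis) in each of the 9 hearts, with the groups in order of time; symbols give the replicate number and lines the group mean. For 1436275_at and 1425870_a_at the Akt-on hearts lie below all others and 4-week replicate 3 lies above all others, while 1421783_a_at shows overlapping groups around 64 to 154.

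A second Kcnip2 probe set, 1425870_a_at on chip 430A, is the lead probe set of the gene by the rule used here, which takes chip 430A first. It had signals of 372, 246 and 219.6 before AAC, 147, 97.1 and 1048 at 4 weeks, and 9.1, 33.8 and 23.2 with Akt on. The order of the hearts was the same in outline: the Akt-on hearts were the lowest 3 of 9 and 4-week replicate 3 was the highest. It fell by 2.52 on the log2 scale in Akt-on hearts against the hearts before AAC (SE 0.60, adjusted p = 0.0177, 5.74-fold lower). The Akt-on signals lie around the added constant of 32, and the plain ratio of mean signals was 12.7 (19.5 against 4 weeks). That call was lost without replicate 1 of the hearts before AAC (adjusted p = 0.0625) or without Akt-on replicate 3 (0.0505). Against 4 weeks the difference was -2.46 (SE 0.60, adjusted p = 0.0539) and missed the threshold, although the 3 hearts of each group did not overlap. It passed without 4-week replicate 2 (-3.05, adjusted p = 0.0303) and was smaller without 4-week replicate 3 (-1.52, adjusted p = 0.0598). Between 4 weeks and before AAC the difference was -0.06 (SE 0.60, interval -1.37 to 1.25, adjusted p = 0.970), and without 4-week replicate 3 it was -1.003 (adjusted p = 0.111).

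The remaining Kcnip2 probe set, 1421783_a_at, lay below the filter and did not share this pattern. Its signals were 154, 87.4 and 142 before AAC, 110.0, 121 and 105 at 4 weeks and 122, 63.9 and 126 with Akt on, and all groups overlapped. The suffix _a marks probe sets that match several transcripts of 1 gene; which Kcnip2 transcripts each probe set reads was not analysed here.

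Levels of atrial genes differed widely between hearts of the same group, so Kcnip2 was set beside them. The atrial score, the mean log2(signal + 32) of Myl7, Myl4 and Sln, was 7.67, 14.19 and 13.04 before AAC, 13.80, 9.48 and 6.43 at 4 weeks, and 13.87, 7.36 and 10.41 with Akt on. Kcnip2 1436275_at was high in all 3 hearts before AAC and low in all 3 Akt-on hearts, at low and high atrial scores alike. The highest Kcnip2 signal came from the heart with the lowest score, 4-week replicate 3. With the score as a covariate the differences of 1436275_at were -4.88 against 4 weeks and -5.97 against before AAC (adjusted p = 0.000446 and 5.72e-05). Apart from this covariate, the part of atrial tissue in the Kcnip2 result was not tested. The 11 tested genes of the atrial list summed to signals of 15453 to 109494 before AAC, 17945 to 84558 at 4 weeks and 15637 to 83998 with Akt on.

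**Figure D2:**
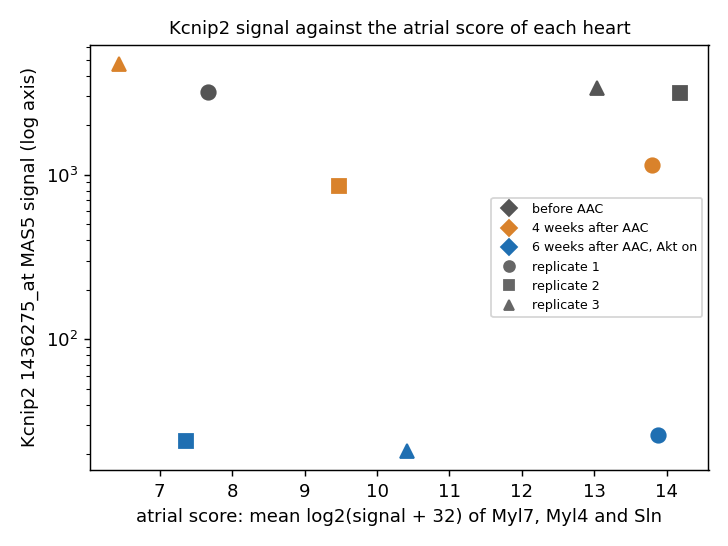
Kcnip2 1436275_at MAS5 signal (vertical log axis) against the atrial score (horizontal axis, mean log2 of signal + 32 of Myl7, Myl4 and Sln), 1 point per heart, with colour for the group and shape for the replicate number. The Akt-on hearts lie near a signal of 24 and the hearts before AAC near 3252 at scores spanning 7.36 to 14.19.

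Other markers moved with the groups as well. Over 12834 genes with 1 lead probe set each, 14.1% changed with Akt on against before AAC (6.86% rose and 7.29% fell), 3.25% with Akt on against 4 weeks (1.43% and 1.82%) and 4.50% at 4 weeks against before AAC (2.36% and 2.14%). Of 9 heart muscle markers, 4 fell with Akt on against the hearts before AAC, none passed against 4 weeks, and 1 fell at 4 weeks against before AAC, Tnni3, by 0.49 (adjusted p = 0.0160). With Akt on against before AAC the largest of the falls was in Ttn, the sarcomere spring titin, by 0.75 on the log2 scale (adjusted p = 0.0173), and the others were 0.38 to 0.48 (Myh6, Myl3 and Tnni3). Of 8 fibroblast markers 3 rose with Akt on, the same 3 in both comparisons (Postn, Col1a2 and Col3a1), with sums of 34888 to 39912 before AAC, 26404 to 42043 at 4 weeks and 40865 to 64361 with Akt on. Of 8 endothelial markers 5 fell with Akt on against the hearts before AAC, none passed against 4 weeks and 2 fell at 4 weeks against before AAC, with sums of 13476 to 14163 before AAC, 8786 to 10843 at 4 weeks and 8130 to 8774 with Akt on. Their part in the Kcnip2 result was not tested. In RNA of whole hearts, fewer heart muscle cells and less RNA per cell cannot be told apart.

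RNA quality, read from the ratio of 3′ to 5′ signal of the β-actin control on chip 430A, was 1.49 to 2.04 before AAC, 1.14 to 1.21 at 4 weeks and 1.04 to 1.22 with Akt on. The ratio was higher before AAC than in each later group (exact two-sided permutation p = 0.1, the smallest that 3 hearts against 3 allow) and gave exact p = 0.4 for Akt-on against 4-week hearts. On chip 430B it was 1.45 to 1.86 before AAC, 1.16 to 1.51 at 4 weeks and 1.11 to 1.26 with Akt on. There the 4-week hearts overlapped those before AAC through replicate 3, at 1.51 (exact p = 0.2), while the Akt-on hearts lay below those before AAC (exact p = 0.1) and gave exact p = 0.3 against 4 weeks. The same ratio of the Gapdh control on chip 430B was 0.95 to 1.15 before AAC, 0.85 to 0.92 at 4 weeks and 0.77 to 0.93 with Akt on. On both chips the Gapdh ratio was higher before AAC than in each later group (exact permutation p = 0.1 each). The part of RNA quality in the comparisons with the hearts before AAC was not tested.

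Kcnv2, the silent subunit, was the other member that fell. Its only probe set, 1440537_at on chip 430B, had signals of 378, 293 and 342 before AAC, 252, 264 and 286 at 4 weeks, and 164, 128 and 158 with Akt on. The 3 groups did not overlap at all, with the hearts before AAC highest and the Akt-on hearts lowest. Means were 338 ± 42.7 before AAC, 267 ± 17.6 at 4 weeks and 150.0 ± 19.6 with Akt on (SD, n = 3 each). Kcnv2 fell by 1.02 on the log2 scale in Akt-on hearts against the hearts before AAC (SE 0.16, interval -1.36 to -0.68, adjusted p = 0.00233), or 2.03-fold, and this call held under all 22 alternative settings.

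Against the 4-week hearts Kcnv2 fell by 0.72 with Akt on (SE 0.16, interval -1.06 to -0.38, adjusted p = 0.0337, 1.65-fold lower). This call was near the threshold and passed under 11 of 22 alternatives, while the difference stayed between -0.81 and -0.63. It was lost without replicate 3 of the hearts before AAC (adjusted p = 0.0628), without 4-week replicate 1, 2 or 3 (0.0591, 0.0846 and 0.113), and without Akt-on replicate 2 or 3 (0.0995 and 0.0642). A fit on only the 2 groups gave 0.0834, and adjustment within the chip 0.0663. Between 4 weeks and before AAC the difference was -0.30 (SE 0.16, interval -0.64 to 0.04, adjusted p = 0.294).

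Kcna5, the Kv1.5 pore, had signals of 547, 361 and 462 before AAC, 304, 321 and 610.3 at 4 weeks, and 151, 326 and 247 with Akt on (1417680_at, chip 430A). All 3 Akt-on hearts lay below all hearts before AAC, but they overlapped the 4-week hearts, of which replicate 3 was again the highest. Against before AAC the Akt-on difference was -0.87 (SE 0.29, interval -1.50 to -0.25, adjusted p = 0.0640), just short of the threshold. It passed under 6 of 22 alternatives, among them without 4-week replicate 3 (-0.87, adjusted p = 0.0347), without Akt-on replicate 2 (-1.10, 0.0475) and with the atrial score as a covariate (0.00579). Leaving out 1 heart moved the difference between -1.10 and -0.61, the smallest without Akt-on replicate 1. The limma adjusted p reached 0.180 among the alternatives. The differences of Akt on against 4 weeks (-0.69, adjusted p = 0.243) and of 4 weeks against before AAC (-0.19, adjusted p = 0.762) did not pass. Without 4-week replicate 3 they were -0.39 and -0.49 (adjusted p = 0.575 and 0.331).

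For the pores that KChIP2 serves, no probe set passed in any comparison. For Kcnd2, which encodes Kv4.2, the lead probe set 1422835_at had signals of 287, 286 and 309.5 before AAC, 353, 164.5 and 326 at 4 weeks, and 300.4, 300.4 and 357 with Akt on. The Akt-on hearts lay within the range of the other groups or slightly above it, and 4-week replicate 2 was the lowest of the 9 hearts. The Akt-on difference was 0.22 against 4 weeks (SE 0.23, interval -0.27 to 0.71, adjusted p = 0.682) and 0.10 against before AAC (interval -0.39 to 0.60, adjusted p = 0.814), and 4 weeks minus before AAC was -0.12 (interval -0.61 to 0.37, adjusted p = 0.819). These intervals leave room for a change of up to about 0.7 in either direction at this number of arrays, and so do not show that Kcnd2 was equal in the groups.

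The remaining Kcnd2 probe sets gave no call either. In 1422834_at the signals spread from 28.4 to 308 over the 9 hearts, with replicate 2 before AAC the lowest, and the differences were 0.37, 0.18 and 0.55 for 4 weeks against before AAC, Akt on against 4 weeks and Akt on against before AAC (SE 0.50 each, adjusted p = 0.724, 0.901 and 0.527). In 1450773_at they were -0.07, -0.18 and -0.25 in the same order of comparisons (SE 0.25 each, adjusted p = 0.901, 0.781 and 0.561). The probe set 1447764_at on chip 430B lay below the filter in all groups, with signals of 3.7 to 7.6.

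Kcnd3, which encodes Kv4.3, was measured by 4 probe sets. The lead probe set 1435720_at had signals of 310.4, 307 and 375 before AAC, 181, 301 and 312 at 4 weeks, and 284, 251 and 297 with Akt on. All Akt-on hearts lay below all hearts before AAC, by little, and within the range of the 4-week hearts. The differences were -0.32 for 4 weeks against before AAC (SE 0.19, adjusted p = 0.361), 0.09 for Akt on against 4 weeks (interval -0.33 to 0.50, adjusted p = 0.864) and -0.23 for Akt on against before AAC (interval -0.64 to 0.19, adjusted p = 0.483).

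A second tested Kcnd3 probe set, 1442555_at, had signals of 153, 190.3 and 92.4 before AAC, 64.9, 117 and 99.6 at 4 weeks and 60.6, 71.7 and 95.7 with Akt on, with overlap between all groups. Its Akt-on difference from the hearts before AAC was -0.69 (SE 0.25, interval -1.23 to -0.14) and did not pass (adjusted p = 0.0919). Below the filter, 1426070_a_at on chip 430A had signals of 53.3, 93.0 and 65.6 before AAC, 11, 35.7 and 50.3 at 4 weeks and 22.9, 12.1 and 7.9 with Akt on, so that both later groups lay below all hearts before AAC. It was not tested, and its low signals give the order little weight. The last Kcnd3 probe set, 1447513_at, ranged from 4.4 to 46.5 with overlapping groups.

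Kcnq1, the KvLQT1 pore, had signals of 679.5, 604 and 716 before AAC, 575, 734 and 739.6 at 4 weeks, and 699, 443 and 673 with Akt on (1449464_at). The groups overlapped throughout, with Akt-on replicate 2 the lowest of all hearts. The Akt-on differences were -0.18 against 4 weeks (interval -0.58 to 0.21, adjusted p = 0.667) and -0.16 against before AAC (interval -0.55 to 0.24, adjusted p = 0.629), and 4 weeks against before AAC gave 0.03 (interval -0.37 to 0.42, adjusted p = 0.951).

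Kcna4, the Kv1.4 pore, lay below the filter in both probe sets and was not tested. Signals of 1422255_at were 91.1, 77.9 and 88.1 before AAC, 77.8, 81.8 and 15.6 at 4 weeks, and 99.0, 76.1 and 74.3 with Akt on. All but 4-week replicate 3 lay between 74.3 and 99.0, and the groups overlapped. Signals of 1438613_at were 1.0 to 26.5 with overlapping groups.

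**Figure D3:**
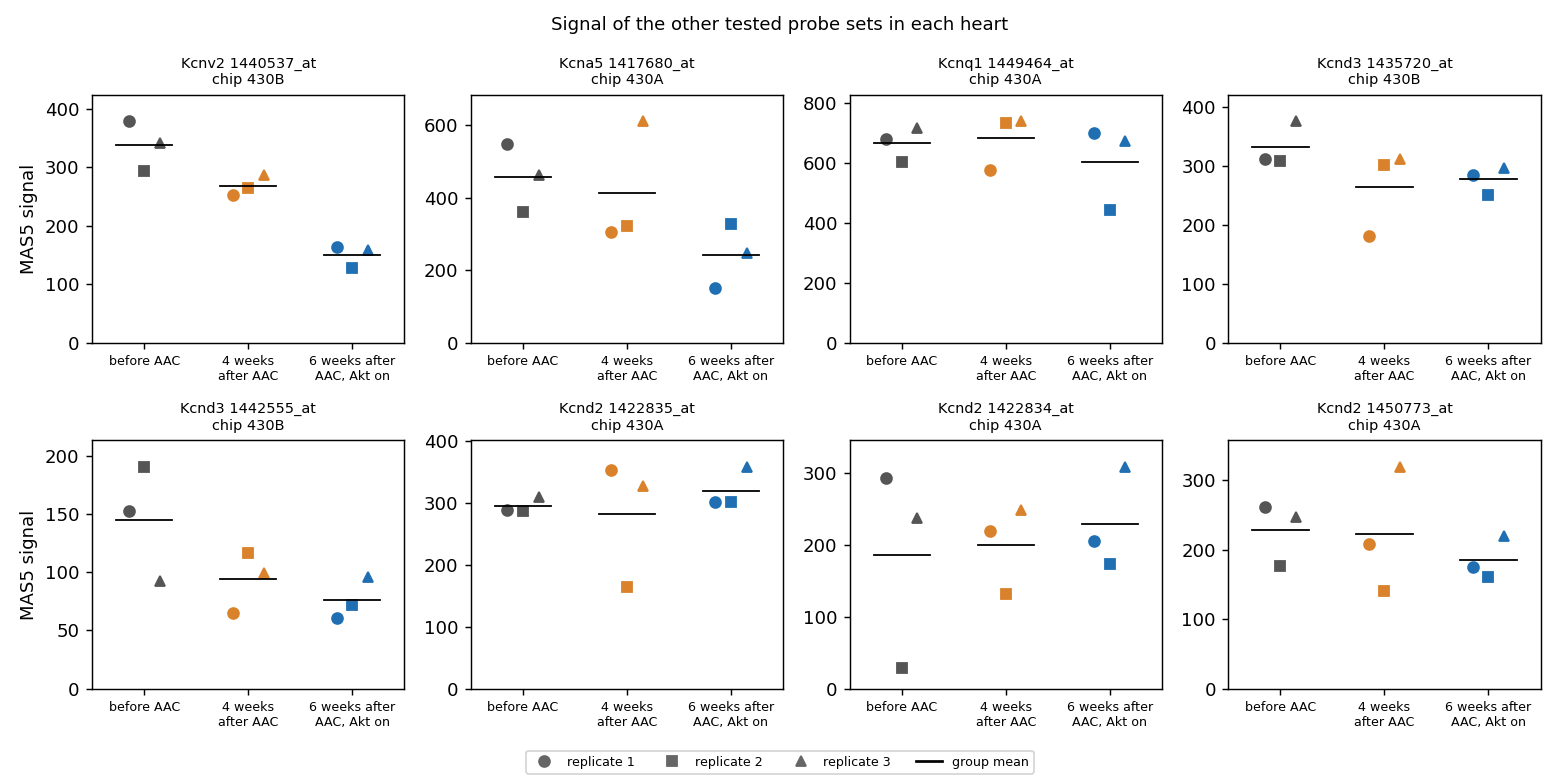
MAS5 signal (linear axis from 0) of the 8 tested probe sets of Kcnv2, Kcna5, Kcnq1, Kcnd3 and Kcnd2 in each heart, with the groups in order of time, symbols for the replicate number and lines for the group mean. Kcnv2 steps down without overlap to 128 to 164 in the Akt-on hearts, whereas Kcnq1 and the 3 Kcnd2 probe sets overlap between all groups.

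Counted over the 10 tested probe sets, none rose or fell at 4 weeks against before AAC, where 4.43% of all tested probe sets changed (2.75% rose and 1.68% fell; at an unadjusted p under 0.05, 5873 of 27081). With Akt on against 4 weeks 2 fell and none rose, where 2.54% changed overall (1.46% fell and 1.08% rose). With Akt on against before AAC 3 fell and none rose, where 13.4% changed overall (6.51% fell and 6.86% rose). Of the 6 tested genes, the calls came from 2, Kcnip2 and Kcnv2, and Kcnip2 gave 2 of the 3 falls against before AAC. The median log2 difference of the 10 probe sets was -0.15 at 4 weeks against before AAC, -0.20 with Akt on against 4 weeks and -0.47 with Akt on against before AAC, beside -0.04, 0.02 and -0.01 over all tested probe sets. Groups lay apart without overlap, lower in the later group, for 1, 3 and 5 of the 10 in that order of comparisons, where 16.2%, 9.79% and 16.4% of all tested probe sets did. Both comparisons of the 4-week hearts share those 3 arrays per chip, and both comparisons against the hearts before AAC share theirs.

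**Figure D4:**
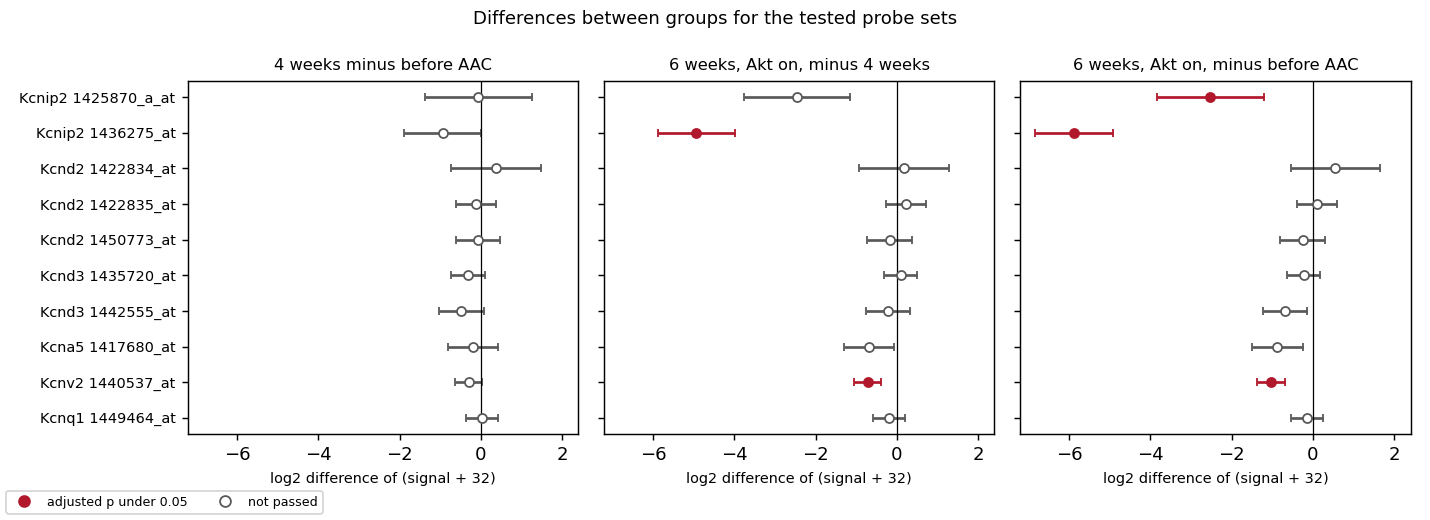
Differences of log2(signal + 32) with 95% intervals (horizontal axis) for the 10 tested probe sets in the 3 comparisons, with filled red points where the limma adjusted p was under 0.05. Kcnip2 1436275_at stands at -4.94 and -5.88 in the comparisons of the Akt-on hearts, Kcnv2 at -0.72 and -1.02, and the intervals of Kcnd2 and Kcnq1 include 0 in each comparison.

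Of 34 other voltage-gated potassium pore subunits 25 were on the arrays and 14 were tested by 1 lead probe set each. None changed at 4 weeks against before AAC or with Akt on against 4 weeks, where 4.50% and 3.25% of 12834 genes did. Against before AAC 1 fell with Akt on, Kcna1, which encodes Kv1.1, while 14.1% of genes changed. Its probe set 1455785_at had signals of 202, 268 and 236 before AAC, 119.6, 172 and 157 at 4 weeks, and 138, 17.8 and 82.5 with Akt on. The Akt-on hearts lay below those before AAC but were widely spread. The fall of 1.43 (SE 0.34, adjusted p = 0.0173) was lost without replicate 2 or 3 of the hearts before AAC (adjusted p = 0.0624 and 0.0567), and the other Kcna1 probe sets gave -0.68 and 0.09 (adjusted p = 0.266 and 0.870). Of 13 other auxiliary subunits 12 were on the arrays and 3 were tested: Kcnab1, Dpp6 and Kcne4. None of them passed in any comparison by its lead probe set.

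The list of transcription factors that act on cardiac channel genes had 19 tested of 21, each by its lead probe set. None changed at 4 weeks against before AAC, and 1 fell with Akt on against 4 weeks. With Akt on against before AAC 5 fell and 1 rose, where 7.29% of all genes fell and 6.86% rose. The largest of these falls was in Foxo3, by 1.66 (SE 0.43, adjusted p = 0.0268), a call that passed under 17 of 22 alternatives. A second Foxo3 probe set gave -0.49 and did not pass (adjusted p = 0.0766). The riser was Gata4, by 0.49 (adjusted p = 0.0266), a call that passed under 18 of 22 alternatives. A second Gata4 probe set rose by 1.20 in that comparison (adjusted p = 0.00864). It also rose at 4 weeks against before AAC, by 1.08 (adjusted p = 0.0321). Klf15, a Krüppel-like factor known in mouse heart as an activator of Kcnip2, had signals of 392, 435 and 499.9 before AAC, 717, 416 and 855.5 at 4 weeks, and 172, 225 and 298 with Akt on. The Akt-on hearts were the lowest 3 of 9, and the 2 highest were 4-week replicates 3 and 1. Klf15 fell by 1.37 against 4 weeks (SE 0.25, adjusted p = 0.0148, 2.58-fold lower). That call passed under 18 of 22 alternatives. It was lost without 4-week replicate 3 (-1.16, adjusted p = 0.0641) or Akt-on replicate 2 (0.0510). A fit on only the 2 groups gave 0.0502, and averaging 4-week replicates 1 and 3 gave 0.0517. Klf15 also fell by 0.87 against before AAC (SE 0.25, adjusted p = 0.0375), a call lost without replicate 1, 2 or 3 of the hearts before AAC or Akt-on replicate 1 or 2 (adjusted p between 0.0633 and 0.130). It was also lost without a filter (0.0720) and without a variance trend (0.0515). Whether the level of Klf15 bears on that of Kcnip2 was not tested.

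Hopx, a homeodomain protein without DNA binding that shapes cardiac conduction, had signals of 17773, 16208 and 15664 before AAC, 9943, 10750 and 13886 at 4 weeks, and 8545, 6412 and 10197 with Akt on. Its 3 hearts before AAC lay above all 6 others. It fell by 1.00 with Akt on against before AAC (SE 0.17, adjusted p = 0.00355) under all 22 alternatives, and its second probe set fell by 0.95 (adjusted p = 0.00702). Irx3, an Iroquois factor of the conduction system, had signals of 895, 913 and 1015 before AAC, 575, 605 and 895 at 4 weeks, and 499, 537 and 567 with Akt on. Of the 4-week hearts replicate 3 lay nearest the hearts before AAC. It fell by 0.78 with Akt on against before AAC (SE 0.17, adjusted p = 0.0110), a call lost without replicate 3 of the hearts before AAC (0.0515). Irx5, known in mice as a repressor of Kcnd2, had a difference of -0.36 (adjusted p = 0.279) in that comparison. Mef2d fell by 0.61 (SE 0.12, adjusted p = 0.00801) in its lead probe set, but its 2 other probe sets gave 0.15 and 0.18 (adjusted p = 0.617 and 0.550), so its probe sets disagree.

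Depolarizing and pacemaker channels had 8 of 15 genes tested, with 2 rising and 1 falling by their lead probe sets with Akt on against before AAC and none passing in the other comparisons. Of 12834 genes, 6.86% rose and 7.29% fell with Akt on against before AAC. In the other comparisons 3.25% changed with Akt on against 4 weeks and 4.50% at 4 weeks against before AAC. Scn4b, a sodium channel β subunit, had signals of 755, 860.0 and 699 before AAC, 918, 1199.7 and 1371 at 4 weeks, and 1194, 1398 and 1785 with Akt on. Both later groups lay above all hearts before AAC. It rose by 0.88 with Akt on against before AAC (SE 0.18, adjusted p = 0.00862), under all 22 alternatives. Cacna2d1, the α2δ subunit of the L-type calcium channel, rose by 0.79 (SE 0.19, adjusted p = 0.0164), a call lost without replicate 3 of the hearts before AAC (0.0770) or Akt-on replicate 3 (0.0537). Of its 3 other probe sets, 2 rose in that comparison, by 0.72 and 1.79 (adjusted p = 0.0221 and 0.000310), and 1 gave 0.32 (0.467). The probe set with 1.79 also rose with Akt on against 4 weeks, by 1.29 (adjusted p = 0.00392). No Cacna2d1 probe set passed at 4 weeks against before AAC. The pacemaker channel Hcn2 fell by 0.62 (SE 0.17, adjusted p = 0.0329), a call lost without replicate 1, 2 or 3 of the hearts before AAC or Akt-on replicate 2 or 3 (adjusted p between 0.0576 and 0.111). Of 8 tested genes for scaffolds and traffic of 10 listed, 1 passed in any comparison by its lead probe set, the kinesin heavy chain Kif5b. It rose by 0.41 with Akt on against before AAC (SE 0.12, adjusted p = 0.0411), where 14.1% of genes changed. The call passed under 12 of 22 alternatives. Leaving out any heart but replicate 1 of those before AAC and 4-week replicate 3 gave adjusted p of 0.0501 to 0.159. The 3 other Kif5b probe sets gave 0.23, 0.56 and 0.87 in that comparison, of which the largest passed (adjusted p = 0.00206). In the same order they gave 0.70, 0.83 and 0.81 at 4 weeks against before AAC (adjusted p = 0.0389, 0.0502 and 0.0102). The first and last of these rose, and the lead probe set gave 0.45 (adjusted p = 0.0545). With Akt on against 4 weeks they gave -0.47, -0.27 and 0.05 and the lead -0.04, without a call.

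**Figure D5:**
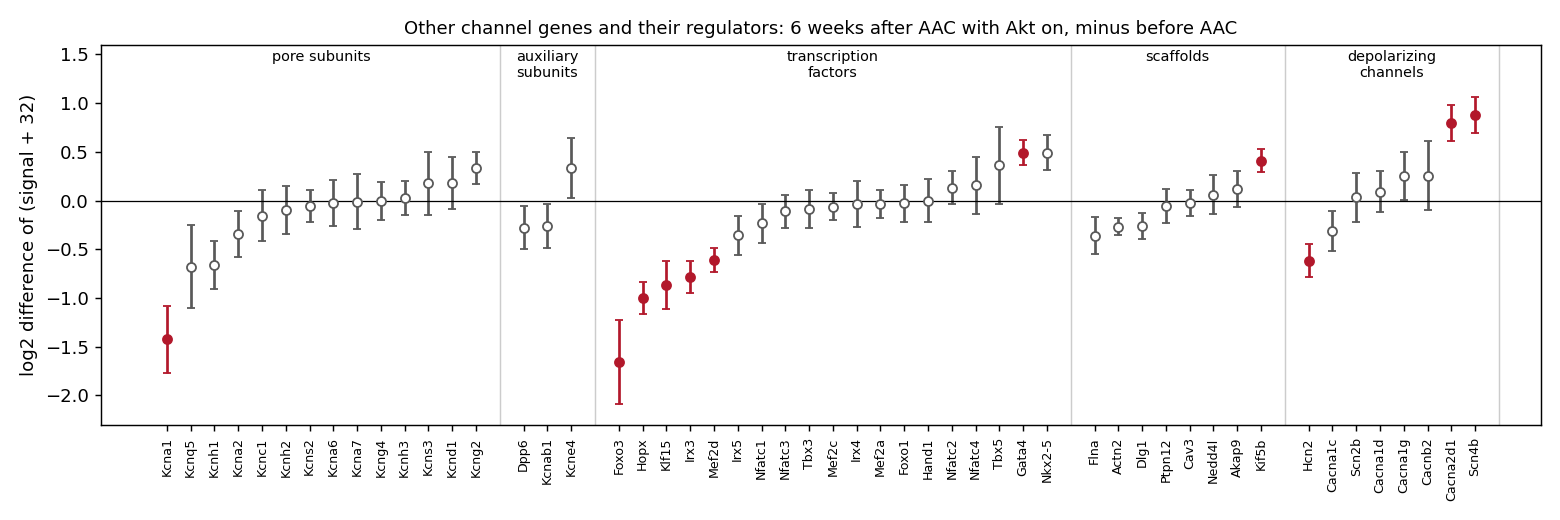
Differences of log2(signal + 32) between hearts at 6 weeks with Akt on and hearts before AAC (vertical axis, bars 1 SE) for the lead probe set of each tested gene on the 5 lists, with filled red points where the limma adjusted p was under 0.05. Of 14 pore subunits only Kcna1 is red, at -1.43, while 6 of 19 transcription factors are red, 5 of them below 0.

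For each tested member the genes with the most similar course over the 9 hearts on the same chip were listed by Pearson's r of log2 signals. These r describe arrays that share their labelling and scaling, and are given without a p. The genes were picked by this likeness, so their courses follow in part from the choice and are no separate support. Kcnip2 1436275_at was followed closest by Lrrc4b (r = 0.984), Creb5 (0.979) and Mylk4, a myosin light chain kinase (0.978), among 3730 genes; this probe set was added to the rule after its values had been seen. Mylk4 had signals of 2536, 2001 and 2841 before AAC, 1453, 1911 and 2900 at 4 weeks, and 253, 117 and 167 with Akt on. It was low in all Akt-on hearts and highest in 4-week replicate 3. Mylk4 fell by 3.60 in Akt-on hearts against those before AAC (adjusted p = 1.90e-05) and fell by 3.32 against 4 weeks (adjusted p = 0.000130). Creb5, with a higher r, gave -0.47 and -0.38 in the same comparisons and did not pass (adjusted p = 0.0847 and 0.273). Kcnip2 1425870_a_at was followed by Jam2 (0.975), Rangrf, a partner of the cardiac sodium channel that aids its transport (0.963), and Phyh (0.961) among 8142 genes. Rangrf, picked in the same way, was highest in 4-week replicate 3, at 2641 against 1735 and 1914 in the others of its group.

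The genes nearest to Kcnv2 were Klhl17 (r = 0.979), the myosin heavy chain gene Myh7b (0.967) and again Mylk4 (0.964) among 3729 genes. Myh7b had signals of 1062, 1022 and 1069 before AAC, 604, 607 and 589 at 4 weeks and 296, 229 and 236 with Akt on, a stepwise order without overlap. Those nearest to Kcna5 were Kmt5a (0.975) and the 2-oxoglutarate dehydrogenase subunits Ogdh (0.959) and Dlst (0.952). For members without a call the nearest genes were Ing2 (0.920), Serpina3n (0.877) and Atg4b (0.875) for Kcnd2, Mmrn1 (0.936), Pola1 (0.918) and Grip2 (0.911) for Kcnd3, and Myorg (0.914), Mrps28 (0.905) and Cfi (0.897) for Kcnq1. None of these last 9 genes passed in any of the 3 comparisons.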

How the data were processed

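Total RNA of 9 hearts was measured on 18 arrays. The deposited values are intensity: linear MAS5 signals, 1 per probe set, per the submitters' processing notes; the MAS5 version and scaling target are not given in the sources used here. The deposited arrays of a chip had 1 common trimmed mean. From them log2(signal + 32) was computed after rescaling to the mean trimmed mean (2% off each end) of the chip. The constant of 32 weighs on chip 430B as 130.7 would on chip 430A. On each chip the brightest 60% of non-control probe sets by mean over all 9 arrays were tested: limma 3.58.1 in R 4.3.3, 3 group means, eBayes with a variance trend, two-sided, Benjamini-Hochberg over both chips. The method was tested on simulated data. The lead probe set of a gene is the one on chip 430A, else 430B, with the highest mean. All probe sets of the 7 genes are given. From each list come up to 4 genes past the threshold with the smallest p. Gata4 was added for its second probe set and Foxo3 for the size of its fall. For each tested member, 3 genes of most similar course are given. Genes and lists were chosen with earlier results of these data known. Symbols came from the platform annotation. Alternatives covered scaling, constant, filter, model, block, covariate and left-out hearts.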

Additional observations from a re-analysis of the deposited data

How the results depend on the processing

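Of 902 values recomputed for 42 results under 22 alternatives, 834 stayed on their side of the threshold, among them 20 values without a call that changed sign; 55 lost their call, 13 gained one, and no called value reversed. In the values reported, 1199, 688 and 3623 probe sets changed at 4 weeks against before AAC, with Akt on against 4 weeks, and with Akt on against before AAC; leaving out 1 heart gave 118 to 1799, 239 to 649 and 1696 to 4082, and 0 to 1, 1 to 2 and 2 to 4 for the 10 channel probe sets. In the first and second comparisons, the count was 612 and 445 without a filter, 748 and 438 without a variance trend, 560 and 431 with the replicate block, and 498 and 370 with 4-week replicates 1 and 3 averaged. With 1 probe set per gene, fewer features being tested, the comparison of 4 weeks gave 661 and that of Akt on, both against before AAC, gave 1940, and a fit on only the 2 groups gave 262 in the second. The channel probe sets called with Akt on against 4 weeks dropped to 1, Kcnip2 1436275_at, without a variance trend, with only the 2 groups and with the replicate block. Same-numbered hearts did not deviate together (r between -0.24 and 0.14 over 18 pairs), so the number is not taken as a pairing. Apart from these constructions, the cause was not tested. Quantile scaling shifted the median difference by at most 0.04. Low signal limits Kcna4, Kcnip2 in Akt-on hearts and the untested probe sets.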

Other observations

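The remaining marker lists give the cellular setting of the channel values. Genes named here were chosen after their values were seen. Beside the counts below, 6.86% of 12834 genes rose and 7.29% fell with Akt on against before AAC. Against 4 weeks 1.43% rose and 1.82% fell with Akt on, and 2.36% rose and 2.14% fell at 4 weeks against before AAC. With Akt on against before AAC, 1 of 11 tested atrial genes fell, Nppb, which encodes a natriuretic peptide, by 0.70 on the log2 scale (adjusted p = 0.0442), and it also fell against 4 weeks, by 0.99 (adjusted p = 0.0318). Of 7 smooth muscle and pericyte markers, Rgs5, a pericyte gene, fell by 0.65 against before AAC (adjusted p = 0.0140), and Cnn1, calponin, rose by 2.04 against 4 weeks (adjusted p = 0.0496). Of 2 tested skeletal muscle genes, Acta1, a skeletal actin that the loaded heart re-expresses, rose by 1.33 at 4 weeks (adjusted p = 0.0159) and by 1.70 with Akt on (adjusted p = 0.00177), both against before AAC. None of 6 macrophage markers and none of 4 Schwann cell and neuron markers passed in any comparison. Endothelial Kdr and Flt1, receptors for VEGF, fell at 4 weeks already, by 0.94 and 0.65 (adjusted p = 0.0147 and 0.0251), and were 2 of 8 markers of that list to do so.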
